A study of Mus musculus with 4 samples.

Results

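Type I interferon stimulated genes were described in mouse dendritic cells (DCs) of 2 genotypes, each without and with lipopolysaccharide (LPS). The list named 34 antiviral effectors, nucleic acid sensors and STAT or IRF transcription factors, and every probe set annotated to exactly 1 of these symbols was taken. This gave 54 probe sets for 32 of the 34 genes, of 45037 probe sets and 18193 named genes on the array. Isg15 and Ifi44 had no such probe set and were not analysed here. A single probe set represented 18 of the genes, and 14 had between 2 and 4.

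The cells were grown from bone marrow for 6 to 7 days in GM-CSF at 20 ng/mL and enriched by magnetic selection for the integrin CD11c. Donor mice were wild-type (WT) or LXR-DKO, which lack both LXRα and LXRβ, the nuclear receptors for oxysterols; the strain given for all samples is C57/BL6. The control group of each genotype received GM-CSF alone at 10 ng/mL for 24 h, and the LPS group received the same GM-CSF with LPS at 100 ng/mL, a bacterial ligand of Toll-like receptor 4 that matures DCs. Each of the 4 groups had 1 array, so no p-value was computed, differences could not be checked against replicates, and precision is limited by the number of arrays. The labels do not say how many mice gave the marrow of a culture.

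In myeloid cells Toll-like receptor 4 signals through the adaptor TRIF to the kinase TBK1 and the factor IRF3, which switch on interferon beta. The secreted interferon binds the receptor IFNAR1/IFNAR2, whose kinases JAK1 and TYK2 phosphorylate STAT proteins. STAT2 and IRF9 are subunits of the complex ISGF3, which binds interferon-stimulated response elements (ISREs) in the promoters of antiviral genes. IRF7 amplifies the loop and USP18 damps it at the receptor.

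Promoter sequence was available for 25 of the 34 genes in RefSeq windows of the mouse build GRCm38.p6, from 250 bases upstream to 50 bases downstream of each start site. The ISRE core was searched as TTTC followed by any 2 bases and a second TTTC, on both strands, and the gamma-activated site (GAS), which STAT dimers bind, as TTCNNNGAA, which reads the same on both strands. At least 1 ISRE core lay in the windows of 10 of the 25 genes (40.0%), against 3.99% of 27025 genes with a window. A GAS match lay in 7 of the 25 (28.0%), against 9.55% of all genes. These are letter matches and not measured binding. In Bst2 the GAS match overlapped an ISRE core, the only overlap among the listed genes.

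The 7 genes below are shown because they had an ISRE core upstream of the start site and a probe set on the array, and because their genotype differences are described further on. Each stretch is given 5′ to 3′ in the direction of the gene, and capitals mark the ISRE core on either strand. Overlapping or neighbouring cores are capitalised together.
Ifit1, chr19:34640760-34640838, plus strand: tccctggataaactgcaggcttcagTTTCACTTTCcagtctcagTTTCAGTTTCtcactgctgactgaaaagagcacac
Ifit3, chr19:34583348-34583441, plus strand: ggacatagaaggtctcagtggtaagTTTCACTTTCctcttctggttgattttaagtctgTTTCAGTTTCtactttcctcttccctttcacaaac
Rsad2, chr12:26456538-26456597, minus strand: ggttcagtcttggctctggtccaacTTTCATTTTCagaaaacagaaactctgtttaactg
Oas3, chr5:120777700-120777759, minus strand: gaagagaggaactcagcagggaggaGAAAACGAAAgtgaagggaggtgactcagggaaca
Bst2, chr8:71537562-71537627, minus strand: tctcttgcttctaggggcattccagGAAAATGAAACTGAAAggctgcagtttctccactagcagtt
Trim30a, chr7:104465195-104465254, minus strand: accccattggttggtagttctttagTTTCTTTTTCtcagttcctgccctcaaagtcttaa
Stat2, chr10:128270251-128270310, plus strand: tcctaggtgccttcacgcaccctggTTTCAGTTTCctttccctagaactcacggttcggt

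**Figure D1:**
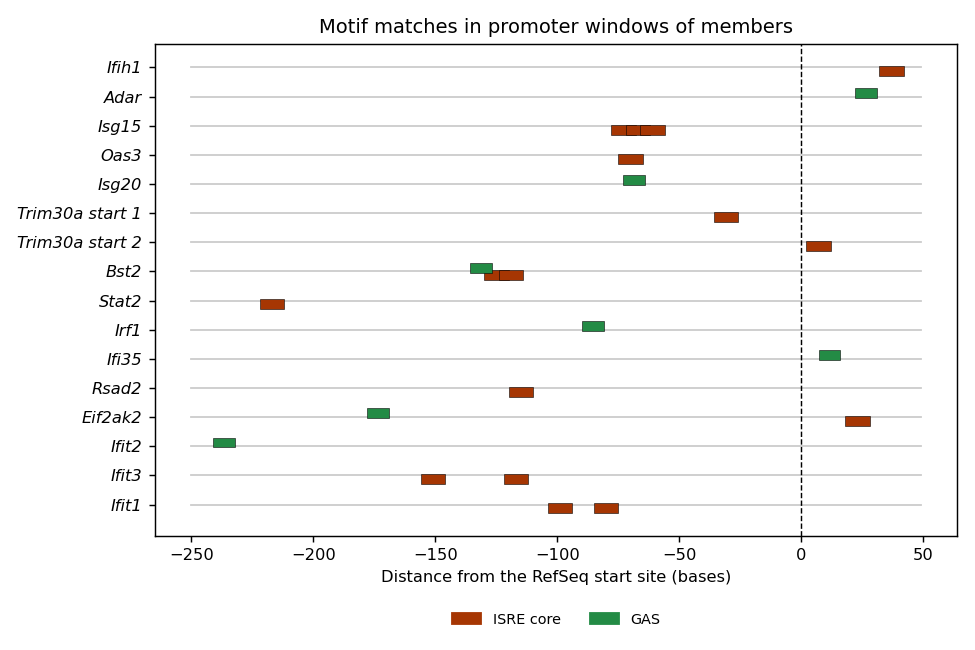
Positions of ISRE core (orange) and GAS (green) letter matches in the promoter windows of the listed genes with at least 1 match, in bases from the RefSeq start site (dashed line at 0). Ifit1, Ifit3, Isg15 and Bst2 each held more than 1 ISRE core upstream of the start, and Trim30a had a match at each of 2 start sites.

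Signals are the deposited values in arbitrary units, on a linear scale with the same trimmed mean of 200.0 on every array. Values below 28.9, the median of all signals, were set to this floor before a log2 ratio was taken, so that ratios built on such a value are lower limits and carry the words "at least". A gene with several probe sets was represented by the brightest, and its other probe sets are described near the end. The only internal error is how far probe sets of 1 gene differ in their log2 ratio. This spread (SD) was 0.29 for the LPS response in WT cells, 0.42 for that in LXR-DKO cells, 0.45 for the genotype ratio without LPS and 0.54 with LPS. It covers the arrays only, not the variation between cultures. Of the 32 genes, 27 reached the floor on each of the 4 arrays and 5 were below it on at least 1 (Oasl2, Ifit1, Mx2, Cmpk2 and Xaf1).

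The targeted gene Nr1h3, which encodes LXRα, was at 108.6 in the WT control, 54.5 in WT LPS, 40.4 in the LXR-DKO control and, below the floor, 27.0 in LXR-DKO LPS. Where its probe set lies relative to the deleted part is not given in the sources used here, and Nr1h2, which encodes LXRβ, was not analysed. The DC integrin Itgax, which encodes CD11c, had signals between 3848.1 and 6093.0, but most other conventional DC markers differed with genotype. Of those measured, 7 of 9 without LPS and 8 of 10 with LPS were past 2-fold higher in LXR-DKO cells. Over all genes 12.7% and 17.8% were. The list summed to 8516.7 and 9196.9 in WT, control and LPS, against 20703.3 and 25531.8 in LXR-DKO cells. Macrophage and monocyte markers summed to 31708.7 and 37118.9 against 47014.4 and 34869.6, and went both ways. Of 11 measured, 5 were past 2-fold higher and 2 lower in LXR-DKO cells without LPS. With LPS 5 were higher and 1 lower, and over all genes 9.28% and 8.76% were lower. The complement gene C1qa was below the floor in both WT cultures and at 5335.4 and 2680.3 in LXR-DKO cells. Cd68 had 7043.9 and 8902.7 in WT cells against 2836.3 and 2139.2, and Mrc1 1939.9 and 285.0 against 378.9 and 149.3. Markers of other cells differed as well. Of neutrophil markers measured, 6 of 8 without LPS and 7 of 7 with LPS passed 2-fold higher in LXR-DKO cells. The all-gene shares were again 12.7% and 17.8%. The list's summed signal was 1884.3 and 1976.9 in WT against 17501.9 and 16652.2 in LXR-DKO cells. B cell markers summed to 464.2 and 419.9 against 3530.9 and 6075.7, and mast cell, basophil and eosinophil markers to 438.9 and 235.1 against 1560.6 and 2329.0, without and with LPS respectively. Of 6 B cell markers measured, 4 passed 2-fold higher in LXR-DKO cells in each condition. Ighm alone was at 2911.2 and 4119.2 there, while Cd22 was lower, short of 2-fold. Of 8 mast cell, basophil and eosinophil markers, 5 passed 2-fold higher without LPS and 8 with LPS. Plasmacytoid DCs are specialised makers of type I interferon. Their 9 markers summed to 550.2 and 515.1 in WT cultures without and with LPS and to 1108.0 and 1759.5 in LXR-DKO cultures. The list was mixed, with 3 of 7 measured without LPS and 4 of 8 with LPS past 2-fold higher in LXR-DKO cells. The defining marker Siglech was below the floor on 3 arrays and at 31.2 in LXR-DKO LPS, and Ccr9 was below it on all. Spib was below it in both WT cultures and at 274.9 and 515.0 in LXR-DKO cells. Klk1 and Cox6a2 were lower there, short of 2-fold. The part of these cells in the results was not tested, and in such bulk RNA fewer cells of a type and less RNA per cell cannot be told apart.

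**Figure D2:**
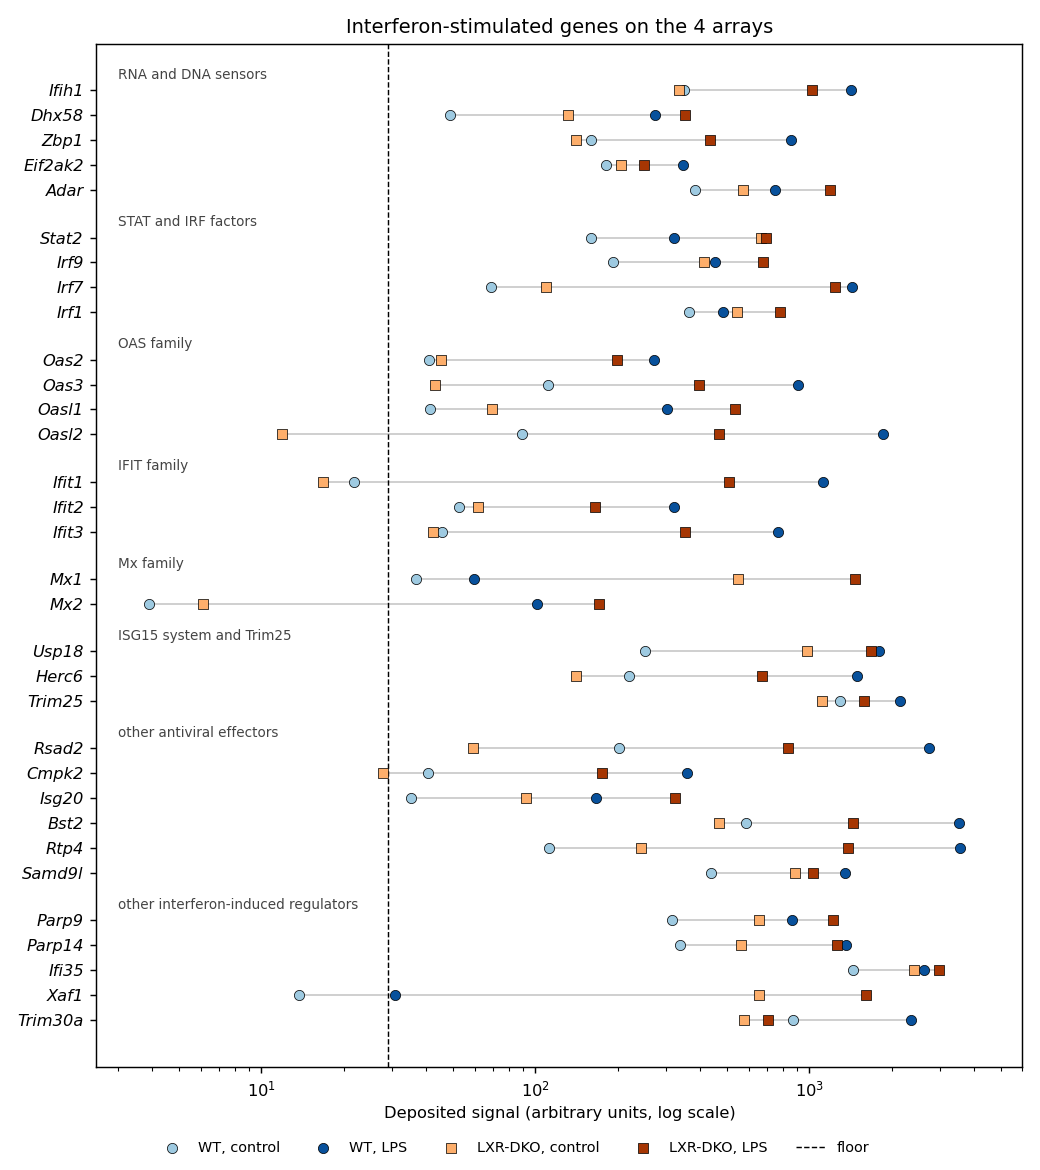
Deposited signal (log scale) of 32 interferon-stimulated genes on the 4 arrays, 1 point per array, by the brightest probe set of each gene and grouped by role, with the floor of 28.9 as a dashed line. No gene had its highest signal on a control array: 20 were highest in WT with LPS and 12 in LXR-DKO cells with LPS. The 12 include Xaf1, whose other probe set was highest in WT with LPS. This split was not made over all genes.

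The first comparison asked how strongly the genes responded to LPS in each genotype. By the brightest probe set all 32 had log2 ratios above 0 in both genotypes, a share that was not counted over all genes. Some lay within the spread between probe sets. These were Xaf1 in WT cells, at 0.09 or above, and Stat2, Samd9l, Eif2ak2, Ifi35 and Trim30a in LXR-DKO cells, between 0.06 and 0.29. In the WT culture given LPS the signal of 25 of 32 (78.1%) was 2-fold or more above the control, where 2.93% of 11449 measured genes were, and the median log2 ratio was 2.34 against -0.05 over all genes. In LXR-DKO 22 of 32 (68.8%) were, where 6.23% of 11793 genes were, and the median was 1.52 against 0.02. None of the 32 was at least 2-fold lower in either genotype, where 4.79% and 1.82% of all genes were. In 19 genes the 2-fold mark was passed in both genotypes, in 6 only in WT cells, in 3 only in LXR-DKO cells and in 4 in neither. This split was not made over all genes. Stat2 and Adar, among those past the mark in a single genotype, lay close to it. Xaf1 was counted as past it in LXR-DKO cells only, but its WT control lay below the floor. Its other probe set passed in WT cells only.

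The IFIT genes encode tetratricopeptide proteins that bind foreign RNA and block its translation, and all 3 stood far higher with LPS. Ifit1 had signals of 21.7 and 1125.6 in the WT cultures, control first and LPS second, and of 16.8 and 510.0 in the LXR-DKO cultures, in the order used throughout. Both controls lay below the floor, so its response was at least 38.9-fold in WT cells and at least 17.6-fold in LXR-DKO cells. Ifit3 had signals of 45.5 and 767.5 in WT cells and of 42.3 and 350.6 in LXR-DKO cells, which is 16.9-fold and 8.29-fold. The controls of Ifit3 were close to each other, while its LPS arrays were apart by genotype. Ifit2 showed the same order of arrays with LPS, with 52.8 and 319.7 in WT cells and 61.5 and 165.2 in LXR-DKO cells, or 6.05-fold and 2.69-fold.

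The oligoadenylate synthetase (OAS) family includes enzymes that make the short oligoadenylate messenger that activates RNase L, and the OAS-like genes encode related proteins. All 4 were higher with LPS by 4.36-fold or more in both genotypes, and the family's median log2 ratio was 2.95 in WT cells and 3.07 in LXR-DKO cells. Oasl2 had signals of 89.2 and 1855.4 in WT cells and of 11.9 and 469.3 in LXR-DKO cells, a 20.8-fold and an at least 16.2-fold difference. Oas3 had 110.8 and 911.2 in WT cells and 43.2 and 394.4 in LXR-DKO cells, or 8.22-fold and 9.13-fold. For Oas3 both LXR-DKO arrays lay below their WT counterparts, so that the response was close in size at a lower level. Oasl1, whose product represses translation of Irf7, had 41.3 and 301.3 in WT cells and 69.5 and 534.4 in LXR-DKO cells, or 7.30-fold and 7.69-fold, with both LXR-DKO arrays the higher ones. Oas2 had 40.8 and 271.9 in WT cells and 45.4 and 198.1 in LXR-DKO cells, or 6.66-fold and 4.36-fold.

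Other antiviral effectors were higher as well. Rsad2 encodes viperin, a radical SAM enzyme that makes a chain-terminating nucleotide, and had signals of 202.7 and 2724.8 in WT cells and of 59.1 and 834.6 in LXR-DKO cells, or 13.4-fold and 14.1-fold. Cmpk2, a mitochondrial nucleotide kinase next to Rsad2 on chromosome 12 in GRCm38.p6, had 40.5 and 356.4 in WT cells and 27.7 and 174.7 in LXR-DKO cells, or 8.80-fold and at least 6.04-fold. Both genes of this pair had their highest signal in WT with LPS and their lowest in LXR-DKO control. Rtp4, which encodes a receptor transporter protein, had 111.9 and 3549.9 in WT cells and 242.4 and 1389.0 in LXR-DKO cells, or 31.7-fold and 5.73-fold. Bst2, encoding tetherin, which holds budding virus at the cell surface, had 589.7 and 3509.9 in WT cells and 469.7 and 1447.8 in LXR-DKO cells, or 5.95-fold and 3.08-fold. Bst2 is also used as a marker of plasmacytoid DCs, for which the signals of other markers are given above. The exonuclease gene Isg20 had 35.1 and 166.6 in WT cells and 92.5 and 324.4 in LXR-DKO cells, or 4.75-fold and 3.51-fold.

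Among the transcription factors the responses were uneven. Irf7 had signals of 68.6 and 1436.2 in WT cells and of 109.7 and 1244.1 in LXR-DKO cells, or 20.9-fold and 11.3-fold. Irf9 and Stat2, which encode subunits of ISGF3, passed the 2-fold mark in WT alone. Irf9 had 191.5 and 453.9 in WT cells and 412.8 and 675.6 in LXR-DKO cells, or 2.37-fold and 1.64-fold. Stat2 had 159.4 and 319.7 in WT cells, which is 2.01-fold and just past the mark, and 667.3 and 696.7 in LXR-DKO cells, or 1.04-fold. The LXR-DKO control culture was thus already above the WT culture with LPS for Stat2. Irf1, an early factor induced by both interferons and NF-kappaB, had 364.1 and 485.2 in WT cells and 545.5 and 785.0 in LXR-DKO cells, or 1.33-fold and 1.44-fold.

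Of the sensors, Ifih1 (MDA5), which detects long double-stranded RNA, had signals of 349.5 and 1423.7 in WT cells and of 335.4 and 1021.5 in LXR-DKO cells, or 4.07-fold and 3.05-fold. Dhx58 (LGP2), a helicase that modulates this detection, had 48.6 and 273.0 in WT cells and 131.3 and 350.5 in LXR-DKO cells, or 5.62-fold and 2.67-fold. Zbp1, a sensor of left-handed nucleic acids that can trigger necroptosis, had 159.8 and 860.2 in WT cells and 140.5 and 435.3 in LXR-DKO cells, or 5.38-fold and 3.10-fold. These 3 were past the 2-fold mark in both genotypes, with the smaller ratio in LXR-DKO cells each time. The kinase gene Eif2ak2 (PKR) was not, with 181.8 and 346.7 in WT cells and 205.5 and 249.3 in LXR-DKO cells, or 1.91-fold and 1.21-fold. Adar, which edits double-stranded RNA and limits its detection, had 382.7 and 750.3 in WT cells and 571.5 and 1195.1 in LXR-DKO cells, 1.96-fold and 2.09-fold, on opposite sides of the mark by a narrow margin.

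In the ISG15 system, Herc6 is the mouse ligase that attaches the ubiquitin-like protein ISG15, and Usp18 removes it. Herc6 had signals of 219.2 and 1496.8 in WT cells and of 140.9 and 674.3 in LXR-DKO cells, or 6.83-fold and 4.79-fold. Usp18 had 250.8 and 1791.3 in WT cells and 978.3 and 1681.0 in LXR-DKO cells, or 7.14-fold and 1.72-fold. The LPS arrays of Usp18 were close to each other, and the genotypes were apart on the control arrays. Trim25, a ligase that acts on the RNA sensor RIG-I, had 1289.6 and 2148.1 in WT cells and 1111.2 and 1588.1 in LXR-DKO cells, or 1.67-fold and 1.43-fold.

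The other regulators included 2 ADP-ribosyltransferase genes that lie close together on chromosome 16. Parp14 had signals of 337.5 and 1358.9 in WT cells and of 565.1 and 1264.5 in LXR-DKO cells, or 4.03-fold and 2.24-fold. Parp9 had 315.4 and 863.5 in WT cells and 654.4 and 1219.5 in LXR-DKO cells, or 2.74-fold and 1.86-fold. In both genes the LXR-DKO control lay above the WT control. Samd9l, a growth-restraining antiviral gene, had 436.3 and 1345.9 in WT cells and 884.1 and 1030.9 in LXR-DKO cells, or 3.08-fold and 1.17-fold. Trim30a, a negative regulator of Toll-like receptor signalling, had 871.1 and 2353.2 in WT cells and 579.5 and 706.2 in LXR-DKO cells, or 2.70-fold and 1.22-fold. Ifi35, whose product binds the related protein NMI, had 1440.4 and 2630.5 in WT cells and 2421.4 and 2970.2 in LXR-DKO cells, or 1.83-fold and 1.23-fold. The last 3 genes had LXR-DKO arrays that lay nearer to each other than the WT arrays.

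**Figure D3:**
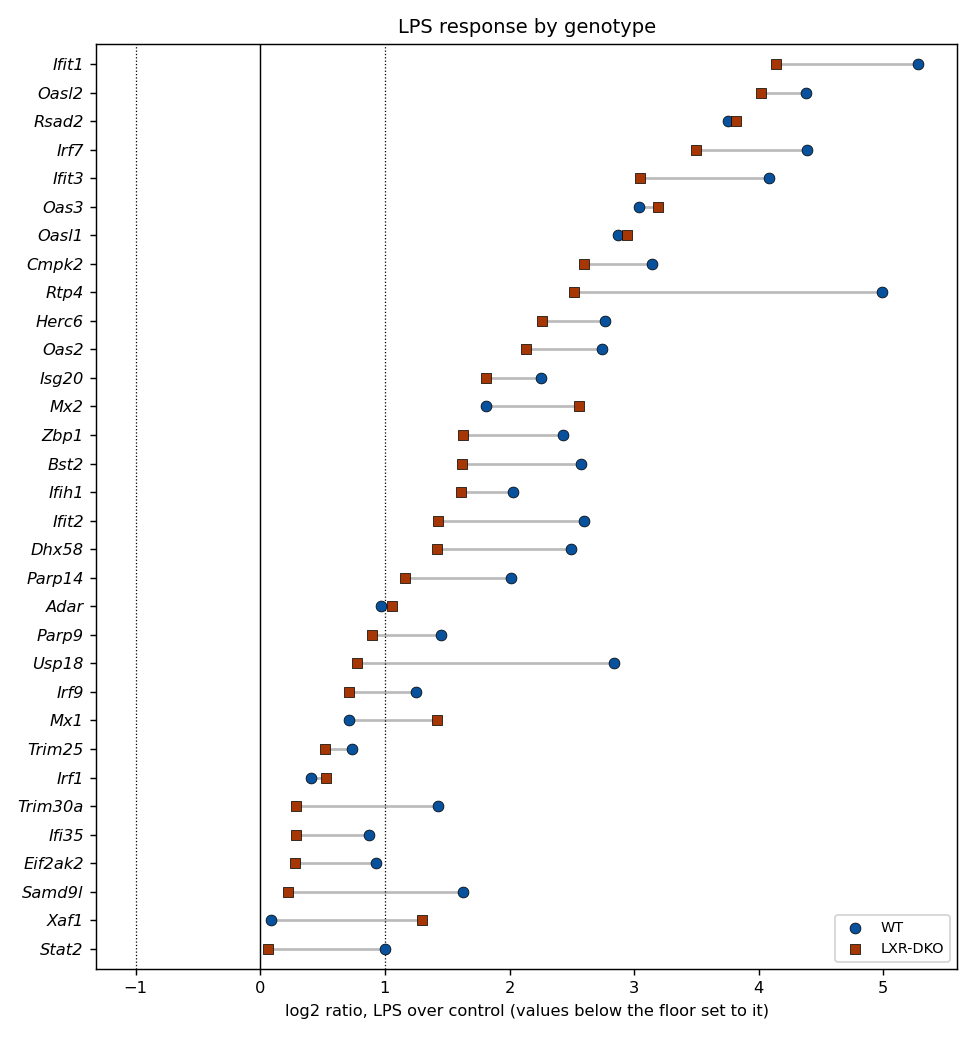
Log2 ratio of LPS over control for each of 32 genes in WT (blue circles) and LXR-DKO (orange squares), ordered by the smaller of both ratios, with dotted lines at 2-fold. As drawn, the WT ratio is the larger one in 24 genes, and the widest gaps are those of Rtp4 and Usp18. Among these 24, the LXR-DKO ratios of Oasl2, Cmpk2 and Ifit1 are lower limits because their LXR-DKO control lay below the floor.

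The response itself was compared next, as the log2 ratio in LXR-DKO cells minus that in WT. By the brightest probe set it was below 0 in 24 genes and above 0 in 8, a split not made over all genes. Some of these lay within the spread given below. The median was -0.56 against 0.08 over all genes. The difference was at least 2-fold towards a smaller response in LXR-DKO cells in 8 of 32, where 2.07% of 12478 genes were, and towards a larger one in 1 (3.12%), where 7.61% were. The 8 were Rtp4 at -2.47, Usp18 at -2.06, Samd9l at -1.40, Ifit2 at -1.17, Trim30a at -1.15, Ifit1 at -1.14, Dhx58 at -1.07 and Ifit3 at -1.03. For Ifit1 both controls were set to the floor, so its value is the genotype ratio with LPS. Rtp4, Usp18 and Samd9l were past the mark under each of the 8 alternative settings, and the other 5 were not. Quantile normalization gave -0.97 for Trim30a and -0.91 for Ifit3, and the floor at the 75th percentile gave -0.85 for Ifit2. Ifit1 was at -0.77 using a 25th-percentile floor and at -0.92 without any. Dhx58 was at -0.70 over all its probe sets, at -0.85 with no floor and at 0.36 with the floor at the 75th percentile, which lies above its control signals. The larger response was that of Xaf1, whose probe sets contradict each other. Rsad2 at 0.07, Oasl1 at 0.08, Adar at 0.09 and Oas3 at 0.15 differed, by the brightest probe set, by less than the spread between probe sets, 0.43 for this quantity. The other probe sets of Rsad2 gave -0.92 or above and -0.58 or above, with their LXR-DKO control under the floor, and those of Adar -0.70 and 0.40. The sign of this difference varied between probe sets in 5 of 14 genes, which were Adar, Dhx58, Parp14, Rsad2 and Xaf1. Both responses and both genotype ratios are built from the same 4 arrays and are therefore not independent.

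The second comparison asked how the genes stood in LXR-DKO cells before LPS. Of the 30 measured, 10 (33.3%) stood 2-fold or more higher than in WT cells, where 12.7% of 11728 genes were, and 3 (10.0%) were at least 2-fold lower, where 9.28% were. The median log2 ratio was 0.58 against 0.05 over all genes. The count of higher genes was 6, with 3 lower, after scaling every array to a shared 75th percentile or after quantile normalization. Scaling to the 75th percentile moved the median of all genes by -0.16 in this comparison and by -0.26 in the one with LPS.

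Of the 10 higher genes, Stat2 was 4.19-fold higher in LXR-DKO control, Usp18 3.90-fold, Dhx58 2.70-fold and Irf9 2.16-fold, by the signals given above. Isg20 was 2.64-fold higher, Rtp4 2.17-fold, Parp9 2.07-fold and Samd9l 2.03-fold. Of these 8, Irf9, Rtp4, Parp9 and Samd9l were below 2-fold under scaling to the same 75th percentile and with quantile normalization. The remaining 2 were Mx1 and Xaf1, described below. The ratio of Ifi35 was 0.75 and that of Irf7 0.68 on the log2 scale, under the 2-fold mark.

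Of the 3 lower genes, Rsad2 was 3.43-fold lower in LXR-DKO control, Oasl2 at least 3.09-fold and Oas3 2.56-fold. With the floor at the 75th percentile none of the 3 passed 2-fold, since the control signals of Oas3 and Oasl2 lie below that floor and only the WT control of Rsad2 lies above it. The IFIT genes were at 0.22 for Ifit2 and -0.11 for Ifit3 on the log2 scale, within the spread between probe sets, and both controls of Ifit1 and Mx2 were below the floor.

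The third comparison set the genotypes side by side after LPS. There 10 of 32 (31.2%) were at least 2-fold lower in LXR-DKO cells, where 8.76% of 12014 genes were, and 3 (9.38%) were at least 2-fold higher, where 17.8% were. The median was -0.41 on the log2 scale, against 0.15 over all genes, and lay between -0.71 and -0.26 over 8 alternative settings of scaling, centring, floor and probe set choice. This comparison and the one before it share no array, while each shares arrays with the LPS responses.

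Rsad2, Oasl2 and Oas3, lower already without LPS, were 3.26-fold, 3.95-fold and 2.31-fold lower with it. A further 7 genes were past the 2-fold mark with LPS, of which 6 were short of it without LPS and Ifit1 was not measured there. Trim30a was 3.33-fold lower, Rtp4 2.56-fold, Bst2 2.42-fold and Herc6 2.22-fold. Ifit1 was 2.21-fold lower, Ifit3 2.19-fold and Cmpk2 2.04-fold, and Zbp1 and Ifit2 were just short of the mark at 1.98-fold and 1.94-fold. With the median over all probe sets of a gene, Rtp4, Herc6 and Cmpk2 were at -0.95, -0.97 and -0.86 on the log2 scale, just under the mark.

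None of the 4 transcription factor genes was 2-fold lower in LXR-DKO cells. Stat2 was 2.18-fold higher in LXR-DKO cells with LPS, Irf1 1.62-fold and Irf9 1.49-fold higher, and Irf7 1.15-fold lower. The ratio of Stat2 fell short of the mark under 4 alternatives, at 0.83 on the log2 scale after 75th-percentile scaling, 0.96 by the median of its probe sets and 0.99 by quantile normalization or centring. Usp18 was 1.07-fold lower and Parp14 1.07-fold lower, both within the spread between probe sets. Neighbouring genes differed too. Oasl1 and Oasl2, adjacent on chromosome 5 in GRCm38.p6, had log2 ratios of 0.83 and -1.98, while Oas2 and Oas3, adjacent on the same chromosome, had -0.46 and -1.21. Among genes with an ISRE core shown above, Stat2 was higher in LXR-DKO cells, and Ifit1, Ifit3, Rsad2, Oas3, Bst2 and Trim30a were lower.

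**Figure D4:**
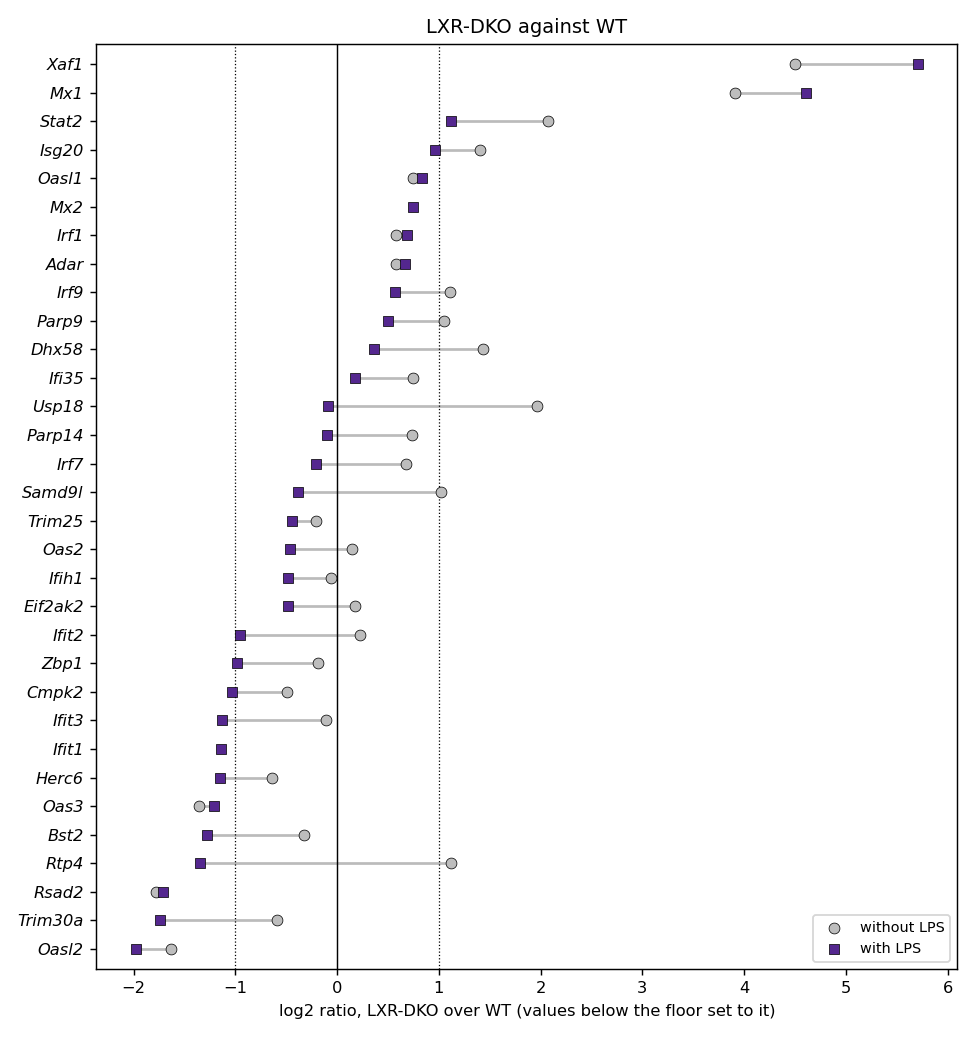
Log2 ratio of LXR-DKO over WT for 32 genes without LPS (grey circles) and with LPS (purple squares), ordered by the ratio with LPS, with dotted lines at 2-fold; Ifit1 and Mx2 have no point without LPS because both controls lay below the floor. For Rtp4, Usp18 and Samd9l the ratio is past 2-fold higher without LPS and at or below 0 with LPS.

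Mx1 and Xaf1 had the largest genotype ratios of the 32 genes by the brightest probe set. How the LXR-DKO line was bred to the labelled strain is not given in the sources used here, so loss of LXR and other alleles carried by that line cannot be told apart in these values. The Mx genes encode dynamin-like GTPases that act against influenza and related viruses, and RefSeq lists both Mx1 and Mx2 as transcribed pseudogenes in the C57BL/6J assembly. Mx1 had signals of 36.6 and 59.9 in WT cells and of 548.7 and 1467.6 in LXR-DKO cells, so both LXR-DKO arrays were far above both WT arrays. It was 15.0-fold higher in LXR-DKO cells without LPS and 24.5-fold with LPS, and its LPS response was 1.64-fold in WT cells and 2.67-fold in LXR-DKO cells. Mx2 did not share this pattern, with 3.9 and 101.5 in WT cells and 6.1 and 170.9 in LXR-DKO cells. Its response was at least 3.51-fold and at least 5.91-fold, and the genotype ratio with LPS was 1.68-fold.

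Xaf1, a pro-apoptotic antagonist of the inhibitor XIAP, had 2 probe sets going opposite ways. The probe set 1443621_at gave 13.7 and 30.8 in WT cells and 654.9 and 1615.0 in LXR-DKO cells. The probe set 1443698_at gave 200.5 and 1971.1 in WT cells and 48.1 and 51.7 in LXR-DKO cells. By the first the LXR-DKO signal of Xaf1 was higher by at least 22.7-fold without LPS and by 52.4-fold with LPS, and by the second lower by 4.17-fold and 38.1-fold. Its LPS response was likewise 2.47-fold in LXR-DKO cells by the first and 9.83-fold in WT by the second. No single direction of the genotype difference can therefore be given for Xaf1, and which transcript parts the probe sets cover is not given in the sources used here. Without Mx1 and Xaf1, Stat2 was the 1 gene past 2-fold higher in LXR-DKO cells with LPS.

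Apart from Xaf1, no gene had probe sets past 2-fold in opposite directions in any comparison. For LPS in WT none of the 13 genes with at least 2 measured probe sets had ratios of opposite sign, and for LPS in LXR-DKO cells 1 had, Eif2ak2 with values between -0.07 and 0.50. For the genotype ratio signs differed in 6 of 12 genes without LPS and in 3 of 14 with LPS. All 3 probe sets of Rsad2 were lower in LXR-DKO cells. Without LPS the brightest was at -1.78, and the others at -1.62 or below and -1.53 or below because their LXR-DKO control lay under the floor. With LPS they lay between -2.45 and -1.71. Both probe sets of Stat2 were higher, at 2.07 and 1.83 without LPS and at 1.12 and 0.80 with LPS. The probe sets of Trim30a were at -0.59 and 0.75 without LPS and at -1.74 and -0.27 with LPS, so its lower signal with LPS rests on the brightest one. For Trim25 the third probe set was at -1.45 with LPS, while the brighter ones were at -0.44 and -0.27. The 4 probe sets of Herc6 lay between -1.48 and -0.19 with LPS. With LPS the dimmest of the 3 probe sets of Adar was at 1.44 and the brightest at 0.67, and those of Ifi35 lay between 0.18 and 0.82.

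**Figure D5:**
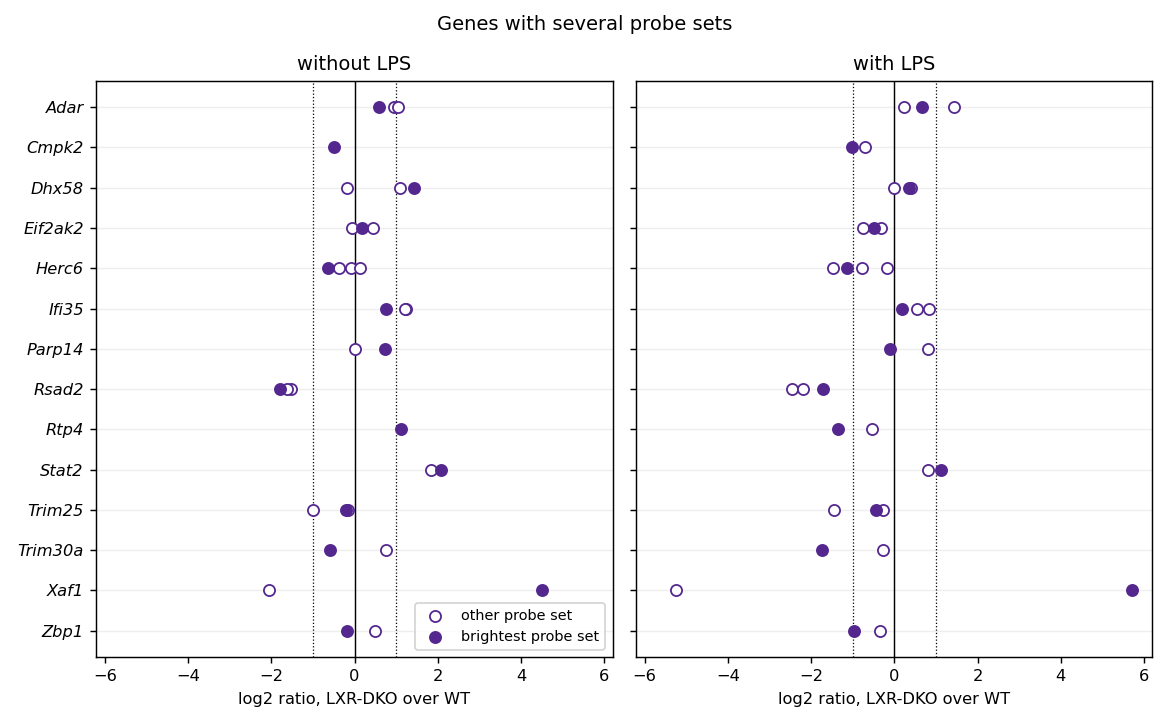
Log2 ratio of LXR-DKO over WT without LPS (left) and with LPS (right) for each measured probe set of the 14 genes with several, the brightest filled and the others open, with dotted lines at 2-fold. Only Xaf1 has points past the dotted lines on both sides.

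The rest of the pathway was read from 3 further lists. Of the sensing and interferon production genes, 2 of 15 measured passed 2-fold higher with LPS in WT cells and 4 of 14 did in LXR-DKO cells, beside 2.93% and 6.23% of all genes. The coreceptor gene Cd14 stood at 2727.4 and 10288.6 in WT cells and 4081.6 and 9570.3 in LXR-DKO cells, and the RIG-I gene Ddx58 had LPS log2 ratios of 1.81 and 0.87. The IRF3 kinase gene Ikbke was at 0.58 in WT cells and 2.05 in LXR-DKO cells. The interferon genes themselves were near or below the floor after 24 h. Ifnb1, Ifna2, Ifna4 and Ifna5 were below it on all 4 arrays, and Ifna1 reached it in WT LPS alone, at 34.3. Between genotypes the DC factor gene Irf8 had log2 ratios of 1.18 without LPS and 3.15 with LPS, and the RNA receptor gene Tlr7 of -2.50 and -2.47. Without LPS 2 of 14 genes of this list, Irf5 and Irf8, passed 2-fold higher in LXR-DKO cells, beside 12.7% of all genes. As many, Tlr7 and Ly96, passed 2-fold lower, beside 9.28%. With the median over all probe sets of a gene Ly96 alone did, and Tlr7 fell short. With LPS 2 of 15 passed 2-fold lower by either choice, beside 8.76%, and 3 passed 2-fold higher, beside 17.8%. Tlr4 itself was at -0.91 and -1.05.

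Receptor, JAK-STAT and feedback genes had 14 of 15 members measured, and Socs3 was the 1 gene past 2-fold higher with LPS in each genotype, at 1.29 in WT cells and 2.74 in LXR-DKO cells, beside 2.93% and 6.23% of all genes. In WT cells 3 genes passed after scaling to the same 75th percentile or centring, and 2 with the median over probe sets. With LPS 4 of 14 genes of this list passed 2-fold higher in LXR-DKO cells, beside 17.8% of all genes, and 3 passed 2-fold lower, beside 8.76%. The lower ones included both receptor chains by their brightest probe sets. With the median over all probe sets of a gene 0 genes of this list passed 2-fold lower. Ifnar1 had 917.8 and 1406.8 in WT cells and 548.0 and 595.6 in LXR-DKO cells, a log2 ratio of -1.24 with LPS. Ifnar2 had 1302.2 and 2556.3 in WT cells and 1034.8 and 1222.4 in LXR-DKO cells, or -1.06 with LPS. The kinase genes Jak2 and Tyk2 went the other way by their brightest probe sets. Jak2 was at 2.75 without LPS and 2.13 with LPS and Tyk2 at 1.68 and 1.49, while Jak1 was at -0.02 and -0.21. Without LPS 4 of 14 genes of this list passed 2-fold higher in LXR-DKO cells, beside 12.7% of all genes. These were Ifngr1, which has 1 probe set, Jak2, Tyk2 and Stat3. With the median over all probe sets of a gene 2 did, so Jak2 and Tyk2 did not both pass.

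Of 49 other interferon-stimulated genes with a probe set, 22 of 45 measured passed 2-fold higher with LPS in WT cells and 14 of 48 did in LXR-DKO cells, beside 2.93% and 6.23% of all genes. In both 0 passed 2-fold lower, beside 4.79% and 1.82%. The median log2 ratios were 0.97 and 0.50, beside 2.34 and 1.52 for the 32 genes. In WT the highest were the helicase gene Ddx60 at 3.55, Phf11d at 2.86, the GTPase gene Gbp2 at 2.70 and Gbp3 at 2.69, and in LXR-DKO cells these were at 2.72, 1.33, 2.55 and 0.67. There Ifi204 was at least at 2.43, with its control below the floor, and the chemokine gene Cxcl10 at 2.16. Between genotypes with LPS, 9 of 48 passed 2-fold higher in LXR-DKO cells, a share near the 17.8% of all genes, and 6 passed 2-fold lower, where 8.76% of all genes did. Oas1a, of the OAS family, was lower at -1.55, Ifi27 at -2.11 and Trim34a at -4.22 or below, while Ms4a4c was higher at 2.86 and Ifi27l2a at 2.42. The difference of the responses was at least 2-fold towards a smaller one in LXR-DKO cells in 6 of 48 and towards a larger one in 1. Over all genes 2.07% and 7.61% were.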

How the data were processed

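RNA of 4 cultures, 1 array per group, was labelled as biotinylated cRNA, per the labels' protocols. The deposited intensity values are MAS5 signals, per the submitters' processing notes, with version and settings not given in the sources used here. They were used as deposited, with no further normalization. The 64 control probe sets of 45101 were left out, and of the other 45037, 34945 had 1 gene symbol in the platform annotation and 932 had several. All 54 probe sets of the listed genes matched RefSeq genes of GRCm38.p6 by gene number, with 0 symbols changed.

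Log2 ratios were taken after setting values below 28.9 to this floor. Genes with every array of a comparison below the floor were not measured there, and log2 ratios of at least 1 in size were counted. Every listed gene was named. Signals of the other lists were given for their largest ratios, for receptor and interferon genes and for plasmacytoid markers, some chosen after their values were seen. The genes and lists were chosen with earlier results of these data known. Counting was tested on simulated data. Alternatives covered scaling, centring, the floor and the choice of probe set. Python 3.11.15, pandas 2.3.3 and numpy 2.4.6 were used.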

Additional observations from a re-analysis of the deposited data

Results flagged for a closer look

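Rtp4, a receptor transporter gene, differed between genotypes in opposite directions without and with LPS. Its brightest probe set was 1.12 higher in LXR-DKO on the log2 scale without LPS and -1.35, thus lower, with LPS. The difference between the conditions was not tested, since each group had 1 array. The second probe set of Rtp4 was above the floor in WT LPS alone, and its ratio with LPS was -0.54 or below.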

How the results depend on the processing

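No paired analysis was possible because each group had 1 array and no test was made. Medians of the 32 genes kept their sign in all 5 comparisons under the 8 alternative settings of scaling, centring, floor and probe set choice. With the floor at the 75th percentile of 177.4, the median LPS response was 1.54 in WT and 1.06 in LXR-DKO, 0 genes were lower in LXR-DKO without LPS, 2 had a larger response in LXR-DKO, and the response difference of Dhx58 reversed to 0.36. Scaling to the same 75th percentile and quantile normalization each gave 6 genes higher in LXR-DKO without LPS. The median over all probe sets gave 1 gene higher in LXR-DKO with LPS and 0 with a larger response, and turned the response difference of Xaf1 to -0.99. The floor at the 25th percentile and log2 of the signal plus 16 in place of a floor gave 0 genes with a response at least 2-fold larger. The floor at the 25th percentile moved the response difference of Oasl2 from -0.36 to 0.92. Of 2 alternatives added after seeing the data, counting every probe set gave a WT LPS median of 2.01 and 6 lower without LPS, and leaving out Mx1 and Xaf1 gave 1 higher with LPS and 0 with a larger response. The causes were not tested. Signals near the floor limit what can be said of Ifit1, Mx2, Cmpk2, Oasl2 and Xaf1.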
